A study of Mus musculus with 16 samples.

Results

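The tubulin genes are a family whose proteins pair as alpha-beta dimers and polymerise into microtubules, the hollow filaments of the cytoskeleton. Of the 57143 genes in the deposited table, 10 alpha and beta tubulin genes were taken by name: the alpha tubulin genes Tuba1a, Tuba1b, Tuba1c, Tuba4a and Tuba8, and the beta tubulin genes Tubb2a, Tubb2b, Tubb4b, Tubb5 and Tubb6. They were chosen from the table with earlier results of these libraries known, among them the low level of Tuba4a at 24h, so the values at 24h against 0h, and those of Tuba4a in every comparison with 24h, are a description. The libraries came from the left ventricle of male C57BL/6 mice that had an abdominal operation under sevoflurane, an inhaled anaesthetic. The 4 groups are 0h, 3h, 24h and 7d after surgery, with 4 libraries each. Every library carries the surgery label, 0h included, so an unoperated or anaesthesia-only group is not part of these comparisons. The age of the mice is not given in the sources used here. Nothing in the labels says whether the 4 libraries of a time came from separate animals, so p-values measure the spread between libraries. All 10 genes passed the filter for testing, a mean of at least 0.5 TPM (transcript abundance scaled for gene length and library total) over the 16 libraries.

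In cardiomyocytes microtubules form a lattice around the nucleus and along the myofibrils. They carry cargo and mRNA, and they resist shortening of the cell when they are tied to the sarcomere through desmin. Most alpha tubulin chains end in a tyrosine that enzymes can remove and put back, and detyrosinated microtubules are the ones that bind desmin and stiffen the cell. Cells also adjust their tubulin mRNA to the pool of free dimers. When free tubulin is plentiful, TTC5 recognises the first residues of the nascent tubulin chain and recruits machinery that degrades the mRNA being translated.

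Those first residues lie in the first 4 codons of each gene, given in capitals for 1 representative transcript of each gene from GENCODE M21 (GRCm38), followed by lower case up to base 30. They were read for 9 of the 10 genes, and no sequence is given for Tubb6.
Tuba4a: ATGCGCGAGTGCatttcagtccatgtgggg
Tuba8: ATGAGGGAATGCatatcggtccatgtgggt
Tuba1a: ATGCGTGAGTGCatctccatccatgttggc
Tuba1b: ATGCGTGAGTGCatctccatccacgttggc
Tuba1c: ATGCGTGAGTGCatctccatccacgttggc
Tubb2a: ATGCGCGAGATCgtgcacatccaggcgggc
Tubb2b: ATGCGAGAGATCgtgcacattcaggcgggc
Tubb4b: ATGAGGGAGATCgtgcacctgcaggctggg
Tubb5: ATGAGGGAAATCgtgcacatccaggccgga
The 5 alpha genes share TGC as the fourth codon and the 4 beta genes shown share ATC.

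The last codons differ among the alpha genes. The final 30 coding bases are shown next for 4 of them, with the last codon and the stop codon in capitals.
Tuba4a: tatgaggacgaggatgagggagaaGAGTAG
Tuba8: gaagaagagaatgagggggaggaaTTTTAA
Tuba1b: gagggggaggaagaaggagaggagTACTAA
Tuba1c: gaaggagacgatgagggtgaggaaTATTAA
Tuba1b and Tuba1c end in a tyrosine codon (TAC or TAT). Tuba4a ends in GAG and Tuba8 in TTT, which encode other residues. Tuba4a and Tuba8 were also the alpha genes of highest TPM at 0h.

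Raw counts summed to between 8313655 and 12893551 per library. The markers of ventricular cardiomyocytes were all present, with a summed level of 50013 to 56768 TPM at 24h against 60520 to 63877 TPM at 0h. Of these 8 markers, 1 was called lower and 0 higher at 24h against 0h, beside 8.62% and 9.53% of all genes. It was Actc1, at a mean of 6328 TPM at 24h against 14646 TPM at 0h. The median log2 fold change of the 8 markers was 0.061. Markers of other cells moved between the times as well. Of the 5 atrial markers tested, 4 were called higher at 24h against 0h, led by Myl7, the atrial myosin light chain, while Bmp10 was at or near 0 at every time. Summed over the 6 atrial markers, where Nppa makes up most of the sum, the level was 482 to 1010 TPM at 24h against 456 to 1468 TPM at 0h. Proliferation markers summed to 1.85 to 3.52 TPM at 24h against 6.93 to 9.45 TPM at 0h. Neutrophil markers summed to 68.7 to 327 TPM at 24h against 11.1 to 13.2 TPM at 0h. The part of these markers in the tubulin values was not tested beyond the fits with Myl7 given below. In such tissue RNA, fewer cells of a type and less RNA per cell cannot be told apart.

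TPM values compare genes with each other within a library. Fold changes come instead from raw counts scaled by TMM, a method that sets the bulk of genes to no change. The scales differ: on log2(TPM + 1) the median of all tested genes lay at -0.19 at 24h against 0h and at -0.15 at 3h against 0h, while on the TMM scale it lay at -0.010 and 0.0035. A TPM ratio at 3h or 24h against 0h is therefore lower than the fitted fold change beside it. All adjusted p-values are from edgeR's quasi-likelihood test with Benjamini-Hochberg adjustment over the 16866 genes tested, and a gene is called where that value is below 0.05.

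At 0h the tubulin genes spanned a wide range of levels. Tuba4a stood first at 636 ± 109 TPM (SD, n = 4) and its libraries did not overlap those of any other member. Tubb4b at 272 ± 23.9 TPM and Tuba8 at 252 ± 26.8 TPM followed and overlapped each other. Tuba1b, Tubb5 and Tuba1a formed the next group, at 127 ± 21.2, 116 ± 11.6 and 90.8 ± 12.8 TPM, each overlapping the next. Tubb2a came after them at 55.0 ± 10.9 TPM, above Tubb6 at 27.8 ± 5.01 TPM and Tuba1c at 24.5 ± 2.30 TPM, which overlapped. Tubb2b was the lowest member at 6.65 ± 1.99 TPM. At 24h this order had another gene on top: Tubb4b at 168 ± 16.7 TPM, Tuba8 at 147 ± 31.3 TPM and Tuba4a at 119 ± 48.1 TPM, each overlapping the next.

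**Figure D1:**
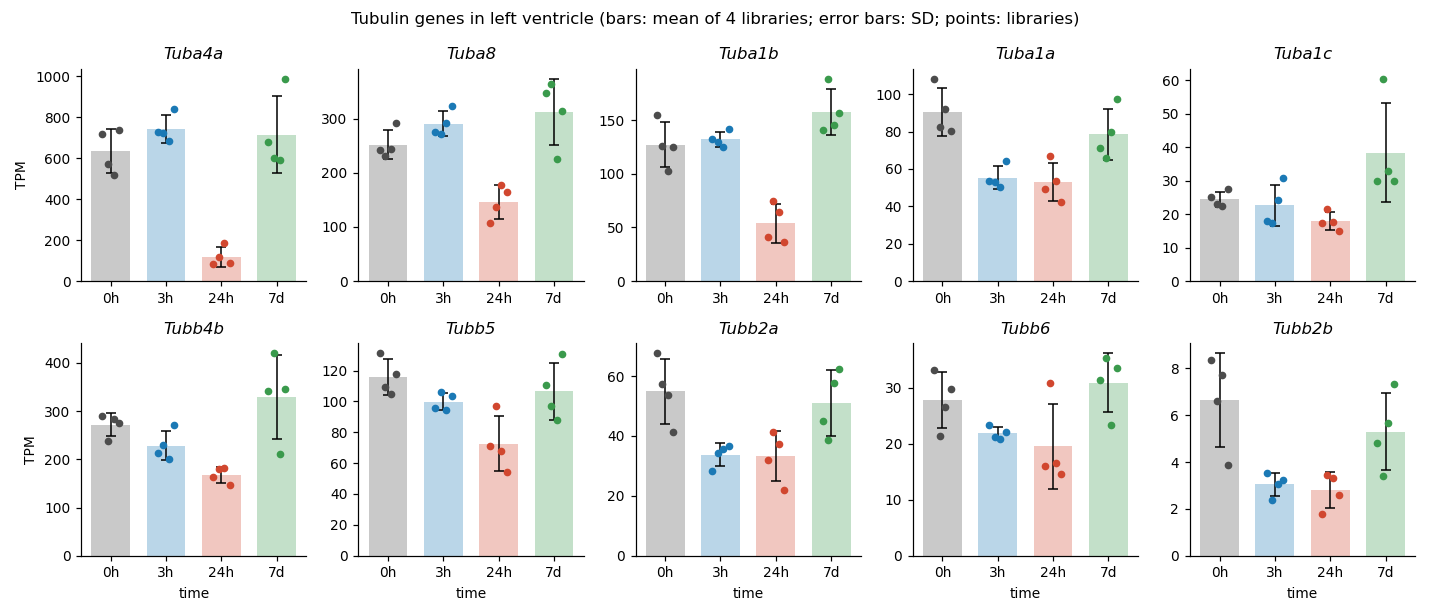
TPM of the 10 tubulin genes in each library (points), with the mean of 4 libraries (bars) and SD (error bars), at 0h, 3h, 24h and 7d, and with a separate linear axis from 0 for each gene. Tuba4a, Tuba1b and Tuba8 are low at 24h alone, while Tuba1a, Tubb2a and Tubb2b are about as low at 3h as at 24h.

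Tuba4a, an alpha tubulin gene of muscle, brain and platelets, had the widest swing. Its level was 716, 572, 517 and 740 TPM in the 0h libraries and 729, 724, 684 and 842 TPM in the 3h libraries. It was 83.7, 117, 187 and 87.0 TPM at 24h, and 681, 603, 590 and 989 TPM at 7d. No 24h library came near any library of another time. The log2 fold change at 24h against 0h was -2.24 (SE 0.20). Against 3h it was -2.65 (SE 0.20). At 7d against 24h the level was 5.63-fold higher, a log2 fold change of 2.49 (SE 0.20). All 3 comparisons rest on the 24h libraries whose low Tuba4a level was known when the genes were chosen, so these values carry no test. At 3h against 0h the value was 0.41 (SE 0.19, adjusted p = 0.203) and at 7d against 0h it was 0.25 (SE 0.19, adjusted p = 0.539), and the groups overlapped in both.

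Tuba4a lies on chromosome 1 (chr1:75214228-75219865, minus strand, GRCm38). Its last 1379 bases on that strand overlap Stk16, a protein kinase gene read from the opposite strand. The strand setting of the counting is not given in the sources used here, so reads from that stretch cannot be assigned with certainty. Stk16 stood at 20.5 ± 1.93 TPM at 24h against 23.4 ± 1.67 TPM at 0h, and its log2 fold change was 0.021 (SE 0.10, adjusted p = 0.908).

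Tuba8, an alpha tubulin gene known from heart, skeletal muscle and testis, followed the same course with a smaller swing. Its libraries held 243, 231, 244 and 291 TPM at 0h and 276, 273, 292 and 323 TPM at 3h. They held 108, 136, 178 and 164 TPM at 24h, and 347, 363, 225 and 314 TPM at 7d. The 24h libraries lay below those of every other time. The log2 fold change was -0.96 at 24h against 3h (SE 0.15, adjusted p = 0.00046) and 0.97 at 7d against 24h (SE 0.15, adjusted p = 0.000361). At 24h against 0h it was -0.57 (SE 0.15), and without replicate 1 of 24h the call there was lost.

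Tuba1b, a ubiquitous alpha tubulin gene, stood at 155, 126, 103 and 125 TPM at 0h and at 132, 130, 125 and 142 TPM at 3h. At 24h it stood at 40.9, 74.5, 64.0 and 36.2 TPM, and at 7d at 141, 189, 146 and 157 TPM. Again the 24h libraries lay apart from all others. The log2 fold change was -1.05 (SE 0.16) at 24h against 0h, -1.29 (SE 0.16, adjusted p = 2.62e-05) at 24h against 3h and 1.46 (SE 0.15, adjusted p = 9.46e-06) at 7d against 24h.

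Tuba1a, an alpha tubulin gene abundant in the developing nervous system and found in many tissues at lower levels, had another course. It stood at 108, 82.3, 92.2 and 80.2 TPM at 0h and at 53.6, 52.8, 50.5 and 64.5 TPM at 3h. At 24h it stood at 49.4, 67.0, 53.6 and 42.3 TPM, and at 7d at 71.3, 66.1, 80.0 and 97.3 TPM. All libraries of 3h and 24h lay below all those of 0h. Tuba1a fell at 3h against 0h, with a log2 fold change of -0.52 (SE 0.13, adjusted p = 0.019), a call lost without replicate 1 of 0h, replicate 2 of 3h or replicate 3 of 3h. Between 24h and 3h the difference was -0.044 (SE 0.13, adjusted p = 0.886). At 7d against 24h it rose by 0.46 (SE 0.13, adjusted p = 0.0268), which did not pass without replicate 1 or 4 of 24h or replicate 3 or 4 of 7d.

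Tuba1c, another of the ubiquitous alpha tubulin genes, stood at 25.1, 22.9, 22.4 and 27.4 TPM at 0h, at 17.9, 17.5, 24.3 and 30.7 TPM at 3h, and at 17.3, 21.4, 17.7 and 14.9 TPM at 24h. At 7d it stood at 29.9, 60.5, 33.0 and 30.1 TPM, with 1 library far above the rest. The 7d libraries lay above those of 0h and of 24h. The log2 fold change was 1.01 at 7d against 24h (SE 0.23, adjusted p = 0.00967) and 0.76 at 7d against 0h (SE 0.22, adjusted p = 0.106). Its direction at 3h against 0h (0.065, SE 0.23, adjusted p = 0.899) turned under 3 of the other scalings or tools, to -0.15 at the lowest.

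Among the beta tubulin genes, Tubb4b, a ubiquitous isotype also used by cilia, was the most abundant. Its libraries held 290, 237, 284 and 276 TPM at 0h and 213, 230, 200 and 271 TPM at 3h. They held 164, 181, 182 and 146 TPM at 24h, and 342, 419.5, 210.0 and 346 TPM at 7d. The 24h libraries lay below all others. Tubb4b rose at 7d against 24h by 0.85 on the log2 scale (SE 0.15, adjusted p = 0.00106). At 24h against 0h the log2 fold change was -0.48 (SE 0.15), a call lost in 6 of the 16 fits that left out 1 library (0h replicates 1, 3 and 4, and 24h replicates 1, 2 and 4).

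Tubb5, the common beta tubulin gene of proliferating cells, stood at 131, 109, 105 and 118 TPM at 0h and at 95.9, 106, 94.2 and 103 TPM at 3h. At 24h it stood at 71.1, 96.9, 67.7 and 54.5 TPM, and at 7d at 111, 97.1, 88.0 and 130 TPM. In TPM the highest 24h library overlapped those of 3h and 7d, and on the TMM scale 24h overlapped 0h as well. The log2 fold change was -0.47 (SE 0.12) at 24h against 0h, -0.44 (SE 0.12, adjusted p = 0.031) at 24h against 3h and 0.44 (SE 0.12, adjusted p = 0.0296) at 7d against 24h. Against 3h the call was lost without replicate 1, 2 or 4 of 3h or replicate 3 or 4 of 24h, and at 7d against 24h it was lost without replicate 4 of 24h or replicate 1 or 4 of 7d.

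Tubb2a and Tubb2b are near-identical beta tubulin genes that lie side by side on chromosome 13. Tubb2a stood at 67.6, 57.4, 53.6 and 41.2 TPM at 0h and at 28.3, 34.2, 35.7 and 36.7 TPM at 3h. At 24h it stood at 31.8, 41.4, 37.4 and 22.1 TPM, and at 7d at 45.1, 38.6, 57.6 and 62.4 TPM. The 3h libraries lay below all those of 0h, with a log2 fold change of -0.52 (SE 0.16, adjusted p = 0.0536) that did not pass the threshold. Between 24h and 3h the difference was -0.0041 (SE 0.16, adjusted p = 0.996). At 7d against 24h it was 0.51 (SE 0.16, adjusted p = 0.0423), a call lost in 9 of the 16 fits that left out 1 library, among them those without 24h replicate 1 or 4 and without 7d replicate 3 or 4.

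Tubb2b stood at 8.38, 6.62, 7.73 and 3.87 TPM at 0h, at 3.52, 2.39, 3.07 and 3.24 TPM at 3h, and at 1.80, 3.45, 3.33 and 2.60 TPM at 24h. At 7d it stood at 4.80, 3.41, 5.65 and 7.33 TPM. In TPM the 3h and 24h libraries all lay below those of 0h, while on the TMM scale those of 3h and 0h overlapped. At 3h against 0h the log2 fold change was -0.93 (SE 0.27, adjusted p = 0.0459), near the threshold, and the call was lost in 9 of the 16 fits that left out 1 library, including each of the fits without a 3h library. At 24h against 0h it was -1.06 (SE 0.27), and at 7d against 24h it was 0.82 (SE 0.27, adjusted p = 0.0616).

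Tubb6, a beta tubulin gene known from muscle regeneration and from muscle of dystrophic mice, stood at 33.3, 21.5, 26.6 and 29.8 TPM at 0h and at 23.4, 21.3, 20.95 and 22.1 TPM at 3h. It stood at 16.04, 30.9, 16.6 and 14.7 TPM at 24h and at 31.4, 35.3, 23.4 and 33.6 TPM at 7d. A single 24h library lay within the range of the other times. It was called at 7d against 24h, with a log2 fold change of 0.56 (SE 0.18, adjusted p = 0.0481) and overlapping groups, and the call was lost in 13 of the 16 fits that left out 1 library. Without replicate 2 of 24h the value was 0.81, the highest of those fits.

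Counted by comparison, 2 members were called lower at 3h against 0h (Tuba1a and Tubb2b), where 3.3% of all tested genes were called lower. At 24h against 0h 8 members were called lower, all but Tuba1c and Tubb6, beside 8.62% of all genes, and the log2 fold change was below 0 for all 10. On TMM counts 1608 genes were called higher and 1454 lower in that comparison, against 643 higher and 2900 lower with limma on log2(TPM + 1) and 1001 higher and 2275 lower with no scaling beyond library totals. It holds the result the members were chosen with, so nothing is read from its count. At 24h against 3h 4 members fell (Tuba4a, Tuba1b, Tuba8 and Tubb5), beside 3.7% of all genes, and again all 10 values were below 0. At 7d against 24h 9 members rose, all but Tubb2b, beside 3.84% of all genes, and all 10 values were above 0. In an F test for any change over time 9 members were called, all but Tubb6 (adjusted p = 0.085), beside 20.7% of all genes. That test takes in 24h against 0h, so nothing is read from its count either.

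The median log2 fold change over the 10 members was -0.046 at 3h against 0h, -0.55 at 24h against 0h, -0.36 at 24h against 3h and 0.84 at 7d against 24h. Over all tested genes the median lay between -0.010 and 0.0045 in these comparisons. At 7d against 0h no member was called, where 0.901% of all genes were called lower and 0.219% higher. In that comparison 4 members had an unadjusted p below 0.05 with edgeR (Tuba1b, Tuba1c, Tuba8 and Tubb4b, with values above 0), DESeq2 called 1 and limma 0. At 7d against 3h no member was called either, beside 2.88% lower and 1.99% higher of all genes. There 6 members had an unadjusted p below 0.05, DESeq2 called 3 and limma 0. The comparisons share libraries, so their counts are not independent of each other. Those at 24h against 3h and 7d against 24h use the same 24h libraries as the result the members were chosen with. Both counts include Tuba4a. They are therefore not independent of that choice and are given as a description.

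**Figure D2:**
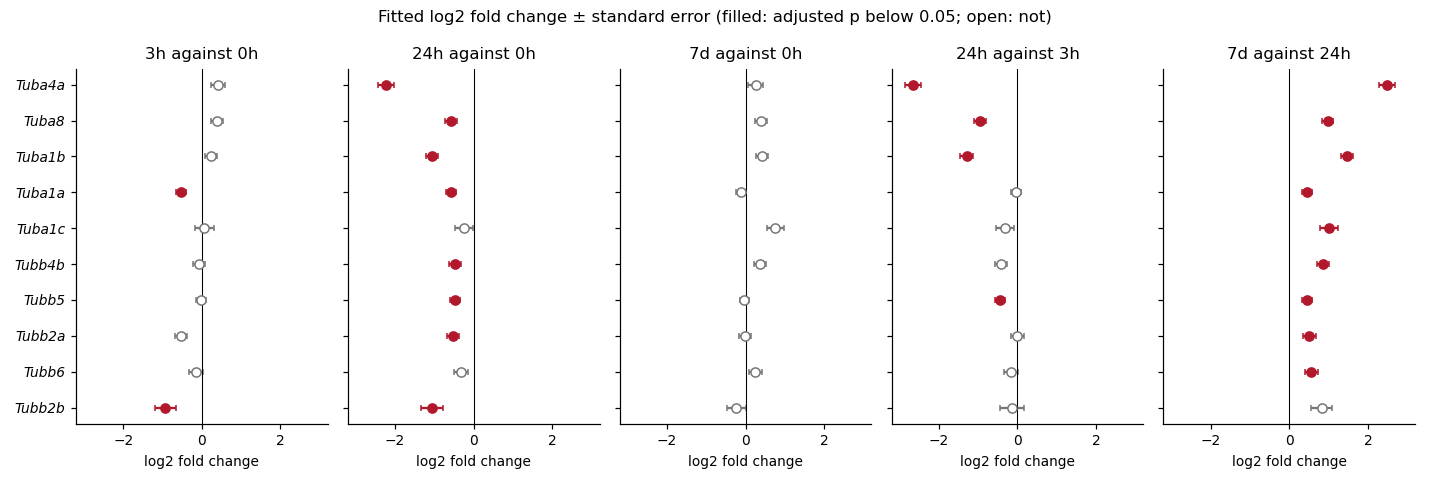
Fitted log2 fold change (x axis) with its standard error for the 10 tubulin genes (rows) in 5 comparisons (panels), the later time over the earlier, with filled points for adjusted p below 0.05 and open points for the rest. Tuba4a reaches -2.24 at 24h against 0h and 2.49 at 7d against 24h, and Tuba1a, Tubb2a and Tubb2b have similar values at 3h against 0h and at 24h against 0h.

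The summed level of the family was lowest at 24h, and the alpha sum differed more from 0h than the beta sum. The 10 members together made up 1608 ± 171 TPM at 0h, 1633 ± 139 TPM at 3h, 687 ± 119 TPM at 24h and 1826 ± 291 TPM at 7d (SD, n = 4). The alpha genes summed to 299, 416, 501 and 345 TPM in the 24h libraries, against 1248, 1035, 978 and 1264 TPM in the 0h libraries. The beta genes summed to 285, 354, 307 and 240 TPM at 24h, against 530, 432, 477 and 468 TPM at 0h. Neither sum overlapped between these groups. Leaving out Tuba4a, the other alpha genes summed to 271 ± 44.2 TPM at 24h against 495 ± 38.1 TPM at 0h.

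The ratio of alpha to beta TPM, which needs no scaling between libraries, was 2.37 ± 0.27 at 0h, 3.22 ± 0.14 at 3h, 1.32 ± 0.26 at 24h and 2.52 ± 0.30 at 7d. The 3h libraries (3.03 to 3.33) lay above all others, and the 24h libraries (1.05 to 1.63) lay below all others. Within the alpha genes, Tuba4a made up 56.0 ± 2.51% of the TPM at 0h, 59.8 ± 1.08% at 3h, 29.7 ± 5.32% at 24h and 54.5 ± 6.26% at 7d. Tuba8 made up 38.0 ± 6.61% at 24h against 22.4 ± 2.26% at 0h, and Tuba1a made up 13.9 ± 2.87% at 24h against 8.10 ± 1.32% at 0h, with no overlap in either. Tuba4a and Tuba8, which end in GAG and TTT, together made up 78.5 ± 2.12% at 0h, 83.1 ± 0.11% at 3h, 67.7 ± 6.21% at 24h and 78.6 ± 3.43% at 7d. The 24h libraries (60.8 to 73.0%) lay below all others, and the 3h libraries (83.0 to 83.3%) lay above all others. Within the beta genes, Tubb4b kept the largest share at every time, 57.2 ± 4.28% at 24h against 57.0 ± 2.58% at 0h. These sums and shares are descriptions of chosen genes and carry no test.

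**Figure D3:**
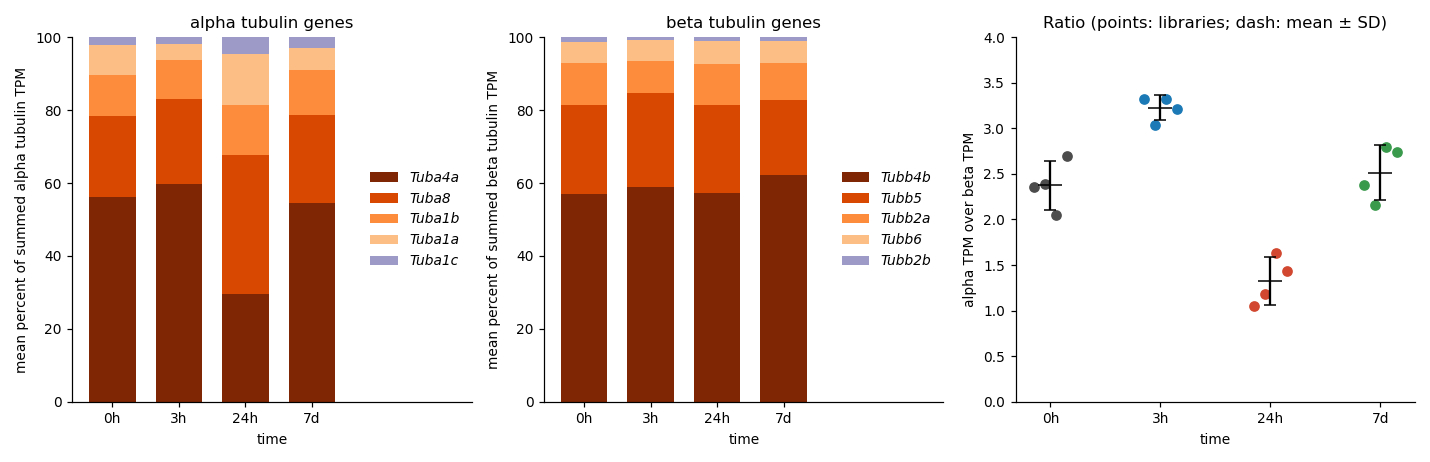
Mean percent of summed alpha tubulin TPM (left) and of summed beta tubulin TPM (middle) taken by each gene at 0h, 3h, 24h and 7d, and the ratio of alpha to beta TPM in each library with mean and SD (right). The Tuba4a part of the alpha bars is 29.7% at 24h and over 50% at the other times, and the 4 ratios at 24h lie between 1.05 and 1.63.

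The members fell into patterns when compared over the 16 libraries. Pearson's r of log2 CPM is given as a measure of likeness, with no test, since libraries of a time share that time and r reflects mainly the steps between times. All 45 pairs had an r above 0. Tuba4a, Tuba1b and Tuba8 ran together, with r of 0.93 for Tuba4a and Tuba1b, 0.86 for Tuba4a and Tuba8 and 0.82 for Tuba1b and Tuba8. Tuba1a, Tubb2a and Tubb2b ran together, with r of 0.89, 0.86 and 0.82 for their 3 pairs. Between the sets r was lower, down to 0.040 for Tuba8 and Tubb2a. Tubb4b had its highest r with Tuba8 (0.77), Tuba1c (0.77) and Tubb6 (0.76).

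**Figure D4:**
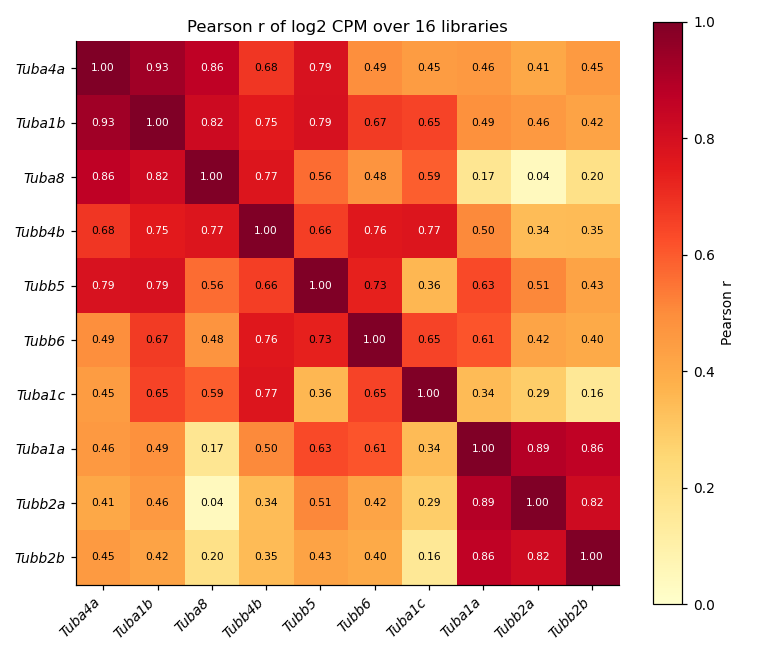
Pearson r of log2 CPM over the 16 libraries for each pair of tubulin genes (rows and columns), with the colour scale and printed values from 0 to 1. The block of Tuba4a, Tuba1b and Tuba8 holds values of 0.82 to 0.93 and the block of Tuba1a, Tubb2a and Tubb2b values of 0.82 to 0.89.

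The genes outside the family whose course was most like that of Tuba4a were Tmx2, a thioredoxin-like membrane protein (r = 0.98), Tfrc, the transferrin receptor (r = 0.97), and Mtfp1, a protein of mitochondrial fission (r = 0.97). Tfrc had a log2 fold change of -1.94 at 24h against 0h. For Tuba1b they were Gas6, a ligand of receptor tyrosine kinases (r = 0.94), Kifc3, a kinesin (r = 0.92), and Colq, the collagen tail of acetylcholinesterase (r = 0.91). For Tuba8 they were Esrra, a nuclear receptor of energy metabolism (r = 0.93), Cox10, an assembly factor of cytochrome c oxidase (r = 0.92), and Tmed9, a cargo receptor of the early secretory pathway (r = 0.92).

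Vwa1, an extracellular matrix protein, came first for both Tuba1a (r = 0.91) and Tubb2a (r = 0.91). Cavin1, a coat protein of caveolae, and Ptk2, the focal adhesion kinase, came next for Tuba1a (r = 0.89 and r = 0.88). Dll4, a Notch ligand of endothelium, and Col1a1, a chain of collagen type I, came next for Tubb2a (both r = 0.91). For Tubb2b they were F2r, the thrombin receptor (r = 0.91), Col5a1, a collagen chain (r = 0.90), and Mcm6, a helicase subunit of DNA replication (r = 0.89). The fibroblast marker Col1a2 had an r of 0.78 with Tuba1a, 0.89 with Tubb2a and 0.83 with Tubb2b, against 0.51 with Tuba4a and 0.20 with Tuba8. Of the 8 fibroblast markers, Col1a2 (-0.60) and Lum (-0.70) were called lower at 24h against 0h and Dcn (0.53) higher. Their summed level was 1926 to 2236 TPM at 24h against 1652 to 2894 TPM at 0h, and their part in the tubulin values was not tested.

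For the rest, Tubb4b was most like Grin2c (r = 0.89), Nmrk2 (r = 0.88) and Mfge8 (r = 0.88). Grin2c stood near the filter, at a mean of 0.559 TPM at 0h and 0.197 TPM at 24h. Tubb5 was most like Rmdn3 (r = 0.85), Prdm1 (r = 0.84) and Ccdc14 (r = 0.83). Prdm1 and Ccdc14 were low as well, at a mean of 0.798 and 0.592 TPM at 24h. Tuba1c was most like Perp (r = 0.87), Pacsin3 (r = 0.86) and Smyd2 (r = 0.84).

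Promoter sequence was at hand for 8 of the 10 genes in a RefSeq table (GRCm38.p6), Tubb2b and Tubb6 being the other two. The window searched was the 250 bases before the RefSeq start, read along the gene's strand. RefSeq and GENCODE M21 place some starts differently, and the windows of Tuba4a, Tuba1b, Tuba1a, Tuba8 and Tubb5 overlap the GENCODE gene, so they are not upstream of every annotated transcript. The windows of Tubb2a, Tubb4b and Tuba1c lie outside the GENCODE gene. That of Tubb2a is shown as an example with a pair of motif kinds, which Tubb4b holds as well. Capitals mark matches, on either strand, to any of 4 short motifs. The TATA box was searched as TATAA. The CCAAT box was searched as its own name spells it. The GC box was searched as GGGCGG. The E-box was searched as CACGTG, and no match was dropped for overlapping another.
Tubb2a, chr13:34078009-34078258, minus strand: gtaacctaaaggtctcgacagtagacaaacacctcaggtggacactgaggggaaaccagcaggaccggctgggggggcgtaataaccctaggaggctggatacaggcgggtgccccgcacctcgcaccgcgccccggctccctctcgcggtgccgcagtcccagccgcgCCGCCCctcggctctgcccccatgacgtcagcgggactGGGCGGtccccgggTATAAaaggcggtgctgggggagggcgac
Tubb2a holds 2 GC boxes and 1 TATA box, and Tuba4a and Tuba1b hold 2 GC boxes each. Tubb4b holds 5 CCAAT boxes and 1 GC box. Of the 8 promoters, 5 held a GC box, 4 a CCAAT box, 2 a TATA box and 2 an E-box. Of the 32851 windows of this length in the table, 32.7% held a GC box, 33.8% a CCAAT box, 22.8% a TATA box and 6.02% an E-box. The GC box stood in Tuba4a, Tuba1b, Tubb2a, Tuba1a and Tubb4b, and not in Tuba8, Tuba1c or Tubb5. The CCAAT box stood in Tubb4b, Tubb5, Tuba1a and Tuba1c, and the E-box in Tuba8 and Tubb5. The TATA box stood in Tuba1a and Tubb2a and in none of the other windows searched, 2 of 8 beside 22.8% of all windows.

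Several members are close copies, which bears on how surely reads can be assigned. Tuba1a and Tuba1b differ at 23 of 1353 coding bases and Tubb2a and Tubb2b at 47 of 1335. Of the distinct 50-base windows in the transcripts of Tuba1a, 75.5% also occur in transcripts of another gene, as do 75.1% of those of Tuba1b and 52.7% of those of Tuba1c. These 3 genes lie within a stretch of chromosome 15 that begins at 98931425 and ends at 99038110 (GRCm38). For Tubb2a the share is 49.6%, for Tubb4b 41.3%, mainly with pseudogenes, and for Tubb2b 36.9%. For Tuba4a it is 35.4%, nearly all of it Stk16 on the opposite strand. It is 14.7% for Tuba8, 0.0892% for Tubb5 and 0 for Tubb6. How the authors counted reads that match several genes is not given in the sources used here, so the split between Tuba1a, Tuba1b and Tuba1c, and between Tubb2a and Tubb2b, is uncertain.

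Libraries differed in the atrial gene Myl7 in a way that ran with time. Myl7 stood at 63.8, 126, 6.97 and 159 TPM in the 24h libraries, against 0, 1.10, 9.59 and 0 TPM in the 0h libraries. It stood at 0.977, 2.73, 146 and 8.39 TPM at 3h and at 0.504, 0.780, 0.844 and 0.815 TPM at 7d. Its log2 fold change at 24h against 0h was 5.50 (SE 1.44, adjusted p = 0.0175). Its r over the 16 libraries was negative with every member, at -0.72 for Tuba4a and Tuba1b, -0.64 for Tuba1a and -0.38 for Tuba1c. The 24h library with 6.97 TPM of Myl7 had 187 TPM of Tuba4a, the highest of the 24h libraries, against 517 to 740 TPM at 0h. The 3h library with 146 TPM of Myl7 had 684 TPM of Tuba4a, the lowest of the 3h libraries and within the range of 0h.

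With Myl7 as a covariate, 1 member was called at 24h against 0h, Tuba4a, in place of 8. Its low level at 24h was known when the genes were chosen, so no refit of these libraries is a test of it. The log2 fold change of Tuba4a at 24h against 0h in that fit was -1.75 (SE 0.23). The other 7 kept a value below 0, from -1.09 for Tubb2b to -0.35 for Tubb4b. At 24h against 3h 3 of the 4 calls held (Tuba4a, Tuba1b and Tuba8), at 3h against 0h none of 2, and at 7d against 24h 2 of 9 (Tuba4a and Tuba1b). Over all genes, 89 were called at 24h against 0h in that fit, in place of 3062. The all-gene counts were 552 in place of 1313 at 24h against 3h and 184 in place of 895 at 3h against 0h. At 7d against 24h they were 24 in place of 1424.

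In a fit chosen after seeing the data, the 4 libraries with more than 50 TPM of Myl7 were left out (replicate 3 of 3h and replicates 1, 2 and 4 of 24h). The lone 24h library was then assumed to vary like the other groups. In that fit Tuba4a was at -1.67 (SE 0.27) and Tuba1b at -0.89 (SE 0.21) at 24h against 0h. They were at -2.14 and -1.19 at 24h against 3h, and at 1.93 and 1.31 at 7d against 24h. Counts of genes called are not given for this fit, since 24h held a lone library.

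**Figure D5:**
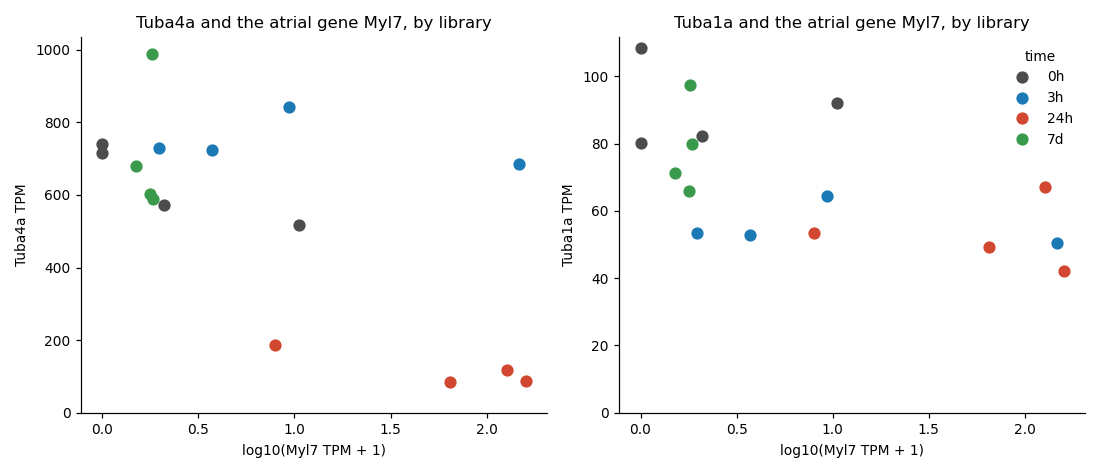
TPM of Tuba4a (left) and Tuba1a (right) against log10(Myl7 TPM + 1) in the 16 libraries, coloured by time. The 4 libraries of 24h lie at 83.7 to 187 TPM of Tuba4a, with the one of lowest Myl7 the highest of them. The 3h library with 146 TPM of Myl7 lies at 684 TPM of Tuba4a, the lowest of 3h.

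Of 10 further alpha, beta, gamma, delta and epsilon tubulin genes in the table, 5 passed the filter: Tubb3, Tubb4a, Tubg1, Tubg2 and Tubd1. None was called at 24h against 0h or at 7d against 24h, where edgeR gave 0 and 2 of them an unadjusted p below 0.05, DESeq2 called 0 and 1, and limma 2 and 2. Tubg1, the main gamma tubulin gene, stood at 20.7 ± 4.55 TPM at 24h against 27.6 ± 2.10 TPM at 0h, with a log2 fold change of -0.22 (SE 0.13, adjusted p = 0.236). The gamma-tubulin ring complex, which nucleates microtubules, had 2 of 13 genes called lower at 24h against 0h (Tubgcp5 at -0.49 and Tubgcp6 at -0.50) and 2 called higher (Tubgcp2 at 0.33 and Mzt2 at 0.46). Tubgcp2 and Mzt2 were called in 3 of 6 scalings and tools there, and Tubgcp5 and Tubgcp6 in all 6. Over all genes 8.62% were called lower and 9.53% higher in that comparison.

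Of 7 tubulin cofactor genes, 2 were called higher and 0 lower at 24h against 0h, beside 9.53% higher and 8.62% lower of all genes. They were Tbce, which helps assemble the dimer, at 0.70 (SE 0.10, adjusted p = 0.000165) and Arl2, its regulatory small GTPase, at 0.60 (SE 0.12, adjusted p = 0.00224). The median of the 7 was 0.31, and -0.010 over all tested genes. Of 14 genes of the CCT chaperonin and prefoldin, which fold tubulin and actin, 4 were called higher and 0 lower, beside the same shares of all genes. They were Cct2 at 0.40, Cct4 at 0.47, Cct7 at 0.37 and Pfdn1 at 0.41, and the median of the 14 was 0.30. DESeq2 called 8 of the 14 and limma on log2(TPM + 1) called 1, and 9 had an unadjusted p below 0.05 with edgeR. Cct7 and Pfdn1 were called in 3 of 6 scalings and tools. At 24h against 0h none of these 6 genes was called with Myl7 as a covariate. At 24h against 3h Tbce was at 0.62 (adjusted p = 0.000737), and with that covariate at 0.58 (adjusted p = 0.00975). Cct4 was at 0.36 there (adjusted p = 0.049) and was not called with the covariate (0.31, adjusted p = 0.243). At 7d against 24h Tbce fell, with -0.52 (adjusted p = 0.00251), and so did Cct4, with -0.39 (adjusted p = 0.0329). Of the 5 genes listed for decay of tubulin mRNA, 0 were called at 24h against 0h by edgeR, DESeq2 or limma, with 0 at an unadjusted p below 0.05 and a median of -0.037.

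Of 17 tested enzymes that modify tubulin, 3 were called lower and 2 higher at 24h against 0h, beside 8.62% lower and 9.53% higher of all genes. Vash1, a vasohibin that removes the terminal tyrosine, was at -1.53 (SE 0.25, adjusted p = 0.000709) and had already fallen at 3h against 0h, at -1.07 (adjusted p = 0.0162). Svbp, the partner that vasohibins need, was called in the other direction, at 0.61 (SE 0.20, adjusted p = 0.0383). That call was made in 3 of 6 scalings and tools, and the one of Vash1 in all 6. Ttl, the ligase that puts the tyrosine back, was at -0.53 (SE 0.11, adjusted p = 0.00301). Agtpbp1, a deglutamylase, was at 0.44 (SE 0.11, adjusted p = 0.00705).

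Of 29 tested genes that bind, track or sever microtubules, 6 were called lower and 2 higher at 24h against 0h, beside the same 8.62% and 9.53% of all genes. The 4 of smallest p were Map7, which recruits kinesin-1, at 1.06, Map1b at -1.01, Camsap2, which caps minus ends, at -0.45 and Map7d1 at -0.64. At 3h against 0h 4 were called lower (Map1b at -1.24, Map1a at -0.98, Clip2 at -0.82 and Clasp2 at -0.36) and 0 higher, beside 3.3% lower of all genes. Of 20 motor genes, 3 were called lower and 1 higher at 24h against 0h, beside 8.62% lower and 9.53% higher of all genes. Those lower were Dync1li2 at -0.46, Kif5b at -0.45 and Dynll2 at -0.41. The one higher was Dync1i2 at 0.30, called in 3 of 6 scalings and tools. Of 7 genes listed as desmin and sarcomere anchors, 3 were called lower and 1 higher at 24h against 0h, beside the same shares of all genes. Des, which encodes desmin, was higher at 0.63, and Dst, Plec and Ank2 were lower at -0.66, -0.66 and -0.64. With Myl7 as a covariate, 1 gene of all these lists was called at 24h against 0h, in the list of microtubule binding and severing genes.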

How the data were processed

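Polyadenylated RNA was sequenced from 16 left ventricle libraries, 4 per time. The protocols in the labels name TRIzol extraction and a directional library kit. Per the submitters' processing notes, reads were handled with cutadapt and STAR on mm10. The counting tool, its strand setting and its handling of reads that match several genes could not be read from the labels or headers. The authors deposited raw counts, TPM and FPKM per gene in a single table, and the FPKM were not used. The deposited TPM are taken as given for levels.

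Counts of all 57143 genes were read and the 16866 with a mean TPM of at least 0.5 over the 16 libraries were tested with edgeR 4.0.16 (TMM, robust quasi-likelihood fit of all 16 libraries) in R 4.3.3, with Benjamini-Hochberg adjustment over all of them at 0.05. Limma 3.58.1 and DESeq2 1.42.0 were alternatives, with other scalings, filters and pseudocounts, the replicate number as a block, Myl7 as a covariate, and each library left out. The scripts were tested on simulated data. Coding ends and 50-base windows come from GENCODE M21, where 90.7% of gene identifiers and all 10 members were found. Library totals of 8313655 to 12893551 counts limit the precision of low genes such as Tubb2b.

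The members and gene lists were chosen with earlier results of these data known. Named genes of the lists were those called, at most the 4 of smallest p, and for likeness the 3 genes of highest r for each member. The coding end of 1 alpha tubulin gene is not reported here.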

Additional observations from a re-analysis of the deposited data

Results flagged for a closer look

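Of 104 groups of 4 libraries examined, 6 held a library whose gap to its nearest neighbour was, as a share of the group's range, above Dixon's 95% critical value. Chance gives about 1 in 20. Among the 40 groups of single members, 2 did. Tuba1c stood at 60.5 TPM in replicate 2 of 7d, against 29.9 to 33.0 TPM in the other 7d libraries. Tubb6 stood at 30.9 TPM in replicate 2 of 24h, against 14.7 to 16.6 TPM in the other 24h libraries. The summed alpha tubulin TPM was 1402 in replicate 4 of 3h, and 1176 to 1208 in the rest of 3h. Tuba8 made up 24.9% of alpha TPM in replicate 3 of 3h, and 22.8 to 23.0% in the rest. Tubb2b made up 0.826% of beta TPM in replicate 4 of 0h, and 1.53 to 1.62% in the rest. Tubb5 made up 23.7% of beta TPM in replicate 4 of 3h, and 26.4 to 26.9% in the rest.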

How the results depend on the processing

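No called member changed direction under any alternative run. In the count of members called, the groups compared alone gave 5 at 3h against 0h, 5 at 7d against 24h and 1 at 7d against 3h. Over all 16866 genes that setting called 3191, 371 and 1107, in place of 895, 1424 and 821. DESeq2 gave 1 at 7d against 0h and 3 at 7d against 3h, and no filter gave 1 at 7d against 3h. Over all genes DESeq2 called 478 of 15884 and 1119 of 15557 there, and no filter 862 of 29424. Myl7 as a covariate gave 0 at 3h against 0h, 1 at 24h against 0h, 2 at 7d against 24h and 3 for any change. Over all genes it gave 184, 89, 24 and 937, in place of 895, 3062, 1424 and 3484. Leaving out the 4 libraries of high Myl7, chosen after seeing the data, left a lone library at 24h, so no count is given for it. The cause of the differences between these counts was not tested.

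With 1 library left out in turn, the count ranged from 0 to 3 at 3h against 0h, 6 to 8 at 24h against 0h, 3 to 5 at 24h against 3h, 5 to 9 at 7d against 24h, 0 to 2 at 7d against 3h and 8 to 10 for any change, and was 0 throughout at 7d against 0h. Tuba1b lost no call in these fits. Neither did Tuba4a, whose calls all rest on the known low level at 24h and carry no test. Over all genes the calls ranged from 298 to 1349 at 3h against 0h and 1621 to 4352 at 24h against 0h. They ranged from 755 to 1684 at 24h against 3h and 792 to 2457 at 7d against 24h. At 7d against 3h they ranged from 461 to 1067, at 7d against 0h from 35 to 313, and for any change from 2521 to 4801. Same-numbered libraries of different times did not deviate together: the r of their deviations ran from -0.12 to 0.055 over 24 pairs, and a library correlated best with its own number in 4 of 24 comparisons with the libraries of another time. With the replicate number as a block the count was 1 at 3h against 0h, 8 at 24h against 0h, 4 at 24h against 3h and 7 at 7d against 24h. Over all genes that fit called 636, 2699, 1115 and 1196 in these comparisons.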
